A study of Mus musculus with 95 samples.

Results

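Epithelium and T cells were compared inside thymoma, a tumour of thymic epithelial cells that usually grows mixed with immature T cells. The comparison used the 25 of 95 segments labelled as epithelium (13) or T cells (12) of thymoma, from 4 mice. A segment is the part of a region of tissue that lies under a fluorescent mask, here pan-cytokeratin (PanCK) for epithelium and CD3 for T cells. In 12 regions, 3 in each mouse, both masks were collected, and the remaining epithelium segment, from mouse 1042, had no T cell partner.

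The series is a mouse model with a knock-in of the GTF2I L424H mutation, and the thymoma mice 1042, 1044, 1082 and 1157 were Gtf2ifl/wt Foxn1-Cre/wt. GTF2I encodes a general transcription factor, and Foxn1, which carries the Cre, is the master regulator gene of thymic epithelium. The Cre thus directs the change to the epithelium, while the T cells under the other mask descend from blood progenitors. The controls were mice 1057 and 1059, Gtf2ifl/fl, and mice 1172 and 1143, Gtf2ifl/wt, all without a labelled Cre. The Gtf2ifl/fl controls thus differ from the thymoma mice in the other Gtf2i allele as well. In control thymus the labels divide epithelium and T cells into cortex (26 segments, 4 mice) and medulla (22 segments, 3 mice, since mouse 1059 gave none). The labels of these groups give no age or time.

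In the normal thymus, epithelial cells form the meshwork on which T cells develop. Cortical epithelium commits progenitors to the T lineage and selects those whose receptors recognise self-presented peptides, and medullary epithelium displays tissue antigens that remove or divert self-reactive T cells. Because the cells interlock, a mask on a tissue section encloses parts of neighbours, and a contrast between masks measures an enrichment, not pure cells. Fewer cells of a type and less RNA per cell cannot be told apart in such segments.

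RNA was read with a whole-transcriptome set of 20175 probes whose barcodes were cut off by light and counted. The 25 segments held 1150512 to 8780374 counts each, over 1005 to 1989 counted cells under the epithelium mask and 1858 to 6377 under the T cell mask. Summed over the segments of each mouse, the epithelium libraries held 5262278 to 13328944 counts and the T cell libraries 10700536 to 17653470. Libraries of control mouse 1143 stood apart in the series for their low depth. Mice 1042 and 1044 lay on 1 slide and mice 1082 and 1157 on another, with controls on the other 2 slides, so that slide and group cannot be told apart. No table used here pairs the probe IDs with gene names. The masks could therefore not be checked against cell type markers, the probes of the mask genes could not be set aside, and only 4 probes are named, by ID. Lists of probes called between masks in the control mice were read in their place.

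Epithelium and T cells of thymoma differed at 5092 of the probes, and the differences beyond 1 log2 unit were all on the epithelial side. Of 20175 probes, 2865 were higher under the epithelium mask and 2227 were lower (edgeR quasi-likelihood test with the mouse as a block, Benjamini-Hochberg adjusted p below 0.05). These are 14.2% and 11% of the probes, and 25.2% together. A total of 102 probes were higher in epithelium by more than 1 log2 unit, the largest by 1.95. No called probe was higher in T cells by as much, and the largest such difference was −0.74, in each case epithelium minus T cells. Between 0.5 and 1 log2 unit the numbers were 629 higher and 47 lower, and below 0.25 they were 764 and 1350. The lower calls were thus mostly small, and the median absolute log2 fold change over all called probes was 0.27.

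The balance between higher and lower calls moved with the scaling. It was 2430 higher and 3859 lower with upper-quartile factors, under which the median of all probes shifted from −0.03 to −0.07, and 2546 and 2855 after quantile normalization with limma. DESeq2 called 1701 and 750. Without mouse 1042, 1044 or 1157 the lower calls went to 1266, 1236 and 1167, against 2680, 2813 and 2399 higher calls. The absence of a lower call beyond 1 log2 unit held in every one of these settings.

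**Figure D1:**
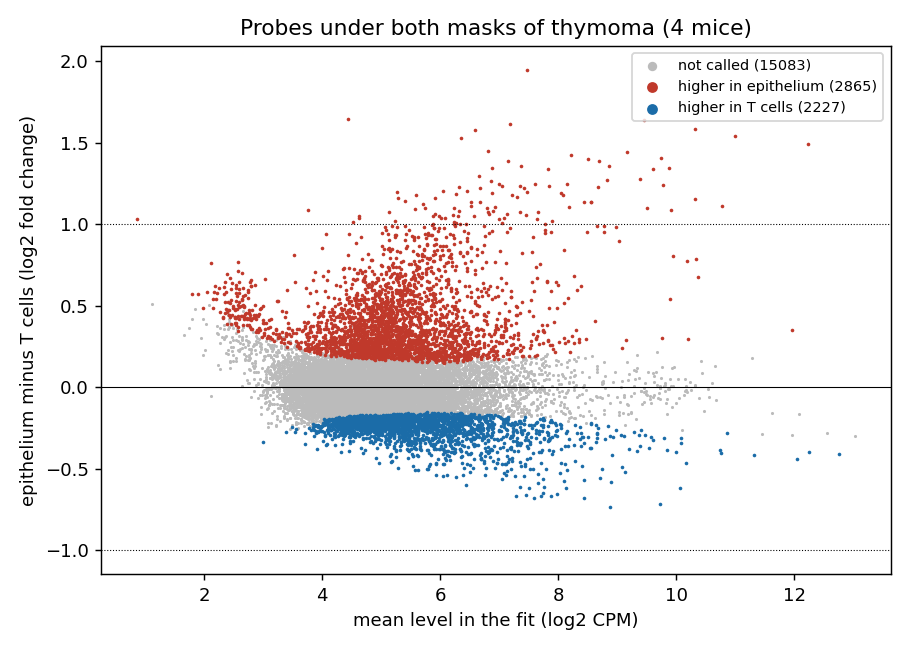
Log2 fold change of epithelium against T cells (y axis) against the mean level of each probe as log2 CPM (counts scaled to a fixed library total, x axis), for 20175 probes in 8 libraries of 4 thymoma mice. Red points are the 2865 probes called higher in epithelium, blue points the 2227 called higher in T cells, and dotted lines mark 1 log2 unit, which 102 red points and no blue point exceed.

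The share of probes called rose with their level. Among the 5044 probes of lowest mean level 391 were called higher and 117 lower, or 10.1% in all. Among the 5044 of highest level 1037 were called higher and 1035 lower, or 41.1%. The median standard error of the log2 fold change was 0.079 in the former and 0.061 in the latter.

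The contrast recurred from mouse to mouse. When each mouse was left out in turn, the probes called higher from the other 3 mice (2399 to 2813) had a positive difference in the mouse left out in 90.5% to 97.2% of cases, where 43.0% to 48.1% of all probes were positive. Those called lower (1167 to 1642) were negative in 90.5% to 97.3%, where from 51.9% to 57% of all probes were. Their sizes carried over in part. The higher probes had a median of 0.37 to 0.38 in the mice that called them and 0.29 to 0.39 in the mouse left out. The lower probes had medians of −0.27 to −0.26 and −0.29 to −0.17.

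Each slide was also fitted on its own, a split chosen after seeing the data. With 2 mice in each fit, little measure of the spread between mice is left, and the calls are a description. The mice of the first slide, 1042 and 1044, gave 2243 higher and 1287 lower calls, and those of the second, 1082 and 1157, gave 2888 and 1319. The slides shared 1664 higher calls, which are 74.2% of the first slide's and 57.6% of the second's. They shared 646 lower calls, which are 50.2% and 49.0%. In either direction the slides called 17.5% and 20.9% of all probes. Of the calls of one slide, between 93.5% and 97.3% had the same sign on the other. The share of all probes with the same sign on both slides was not computed. Over all probes the log2 fold changes of the slides correlated with r = 0.755. The second slide had more large differences, with 179 probes higher by more than 1 log2 unit against 45 on the first.

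The 12 regions allowed the same contrast to be read within single pairs of masks. A difference of log2 CPM with a prior count of 2 had 1 sign in all 12 pairs for 2022 probes, or 10% of those tested, with 1184 higher in epithelium and 838 lower. Among the called probes this held for 1163 of the 2865 higher and 772 of the 2227 lower. It held for 87 of the 102 probes above 1 log2 unit. The calls rest on the sums of the same segments, so these counts describe how even the difference was across regions and are not separate evidence for it.

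Differences were spread more among regions of a mouse than among mouse means, except where they were largest. Over the 10087 probes above the median level, the median SD of the paired difference was 0.170 among regions within a mouse and 0.115 among the 4 mouse means, each a mean over 3 regions. For the 102 probes above 1 log2 unit the order turned, with 0.250 among regions and 0.347 among mice. Across the same 10087 probes, which are not independent, the paired differences of regions in 1 mouse correlated with a median r of 0.708 (12 pairs of regions). The median r was 0.642 for regions of different mice on 1 slide (18) and 0.584 across slides (36). The ranges overlapped, from 0.485 to 0.771, 0.505 to 0.714 and 0.418 to 0.697.

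The probe with the largest log2 fold change towards epithelium among those above the median level and of 1 sign in all pairs was RTS0069819. Its level under the epithelium mask was 209, 191, 397 and 339 CPM in mice 1042, 1044, 1082 and 1157, and under the T cell mask 93.7, 72.6, 76.3 and 50.4. Every epithelium value lay above every T cell value, and under the epithelium mask both mice of the second slide were above both of the first. The log2 fold change was 1.95 (SE 0.18, edgeR adjusted p = 1.12e-07). The 12 regional pairs ran from 0.74 to 2.38 with a median of 2.06, and the lowest was in mouse 1042. The call and the shared sign of the pairs chose each of the 4 named probes and are a description. B cell segments of the same tumours held 13.5 ± 1.61 CPM (SD, n = 4), below both other masks.

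In control mice the same probe also separated the masks. It was at 50.2 ± 17.0 CPM in cortical epithelium and 22.2 ± 5.48 in cortical T cells (SD, n = 4), and at 245 ± 185 and 86.9 ± 24.5 in the medulla (n = 3). The log2 fold changes were 1.46 in cortex (edgeR adjusted p = 5.31e-15) and 1.55 in medulla (adjusted p = 1.59e-06). The contrast in thymoma did not differ detectably from either (adjusted p = 0.486 and 0.744 for the difference of contrasts).

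RTS0081628 was the second probe towards epithelium under the same limits and the third of all probes tested, and of the 4 named it varied most between tumours. Its epithelium level was 360, 478, 2385 and 666 CPM in mice 1042, 1044, 1082 and 1157, and its T cell level 87.3, 109, 1519 and 210. Mouse 1082 stood far above the others under both masks, and its T cell level exceeded the epithelium level of the other 3 mice. Its own contrast was the smallest, with a mean paired log2 difference of 0.47 against 2.11, 2.10 and 1.56 in mice 1042, 1044 and 1157. Over all mice the log2 fold change was 1.64 (SE 0.16, edgeR adjusted p = 2.25e-07), and the 12 pairs ran from 0.18 to 2.81. B cell segments held 867, 321, 3131 and 137 CPM in the same order of mice. B cells thus exceeded epithelium in mice 1042 and 1082 and lay below it in mice 1044 and 1157.

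In control thymus this probe was at 17.4 to 125 CPM in cortical epithelium and 33.3 to 50.9 in medullary epithelium. T cells held 29.8 to 66.3 CPM in cortex and 30.4 to 34.3 in medulla. Control B cells held 38.7 to 234 CPM, and every control value lay below those of thymoma epithelium. In cortex of mouse 1059 epithelium held 17.4 CPM and T cells 30.9. The probe was called higher in epithelium in cortex (log2 fold change 0.70, edgeR adjusted p = 1.09e-05) and in medulla (0.41, adjusted p = 0.0426). Its mask contrast was larger in thymoma than in cortex by 1.08 log2 units (SE 0.27, edgeR adjusted p = 0.0350) and than in medulla by 1.23 (SE 0.29, adjusted p = 0.0345). Both calls were lost when any 1 mouse of the fit other than 1082 was left out, over the probes above the median CPM (adjusted p = 0.0501 and 0.0794) and in DESeq2 (adjusted p = 0.181 and 0.136). The differences themselves stayed at 0.84 to 1.46 and 1.06 to 1.54 without 1 mouse, and were 1.25 and 1.33 in DESeq2. Without mouse 1082 the differences were 1.38 and 1.54 (edgeR adjusted p = 6.94e-05 and 7.69e-06). The probe was chosen for its large thymoma contrast, which favours a positive difference, so these tests are a description.

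RTS0075116 had the largest difference towards T cells. Its T cell level was 289, 630, 772 and 698 CPM in mice 1042, 1044, 1082 and 1157, and its epithelium level 178, 317, 477 and 442. The T cell mask was higher in each mouse, although the groups overlapped because mouse 1042 was low under both masks. The log2 fold change was −0.74 (SE 0.09, edgeR adjusted p = 1.96e-06), and all 12 pairs were negative, from −1.35 to −0.34. The call and the shared sign chose this probe and are not separate evidence for it. B cell segments were lower than both, at 54.9 ± 18.6 CPM (n = 4).

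The contrast of RTS0075116 was called in the control medulla and not in the cortex. The log2 fold change was −0.68 in medulla (edgeR adjusted p = 0.000157) and −0.07 in cortex (adjusted p = 0.785). In cortical T cells it was at 328 to 1058 CPM in 3 mice and at 70.9 in mouse 1143, and in cortical epithelium at 373 to 870 and 67.3. Medullary T cells held 147, 56.3 and 20.0 CPM in mice 1057, 1172 and 1143, and medullary epithelium 83.6, 42.6 and 19.5. In mouse 1143 each medullary value was a count of 7, so the contrast in medulla was clearest in mouse 1057. The thymoma contrast lay below that of cortex by −0.67 log2 units (SE 0.13, adjusted p = 0.00448). This call was lost without control mouse 1172 (−0.55, adjusted p = 0.0740). Against medulla the difference was −0.11 (edgeR adjusted p = 0.954), and it ran from −0.34 to 0.02 without 1 mouse. The lowest of these was without mouse 1057. The probe was chosen for its thymoma contrast, which favours a negative difference, so these tests are a description.

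RTS0076005 was next towards T cells, with a log2 fold change of −0.72 (SE 0.10, edgeR adjusted p = 1.30e-05). Its T cell level was 707, 1143, 1233 and 1201 CPM in mice 1042, 1044, 1082 and 1157, and its epithelium level 443, 561, 818 and 750. The T cell mask was again higher in each mouse, with mouse 1042 lowest under both, and the 12 pairs ran from −1.52 to −0.38. Thymoma B cell segments were at 274 ± 83.7 CPM (n = 4). In control mice the log2 fold change was −0.21 in cortex (adjusted p = 0.310) and −0.66 in medulla (adjusted p = 1.32e-05). Against cortex the difference of contrasts was −0.51 log2 units, short of the limit (edgeR adjusted p = 0.0637). It passed with upper-quartile factors (adjusted p = 0.0119), RLE factors (0.0326), DESeq2 (0.0142) and over the probes above the median CPM (0.0310). It also passed without mouse 1042, 1082, 1143 or 1157. Without mouse 1044, 1057, 1059 or 1172 it did not (adjusted p = 0.117 to 0.370), nor without the mouse block. Against medulla the difference was −0.09 (edgeR adjusted p = 0.877). This probe too was chosen for its thymoma contrast.

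**Figure D2:**
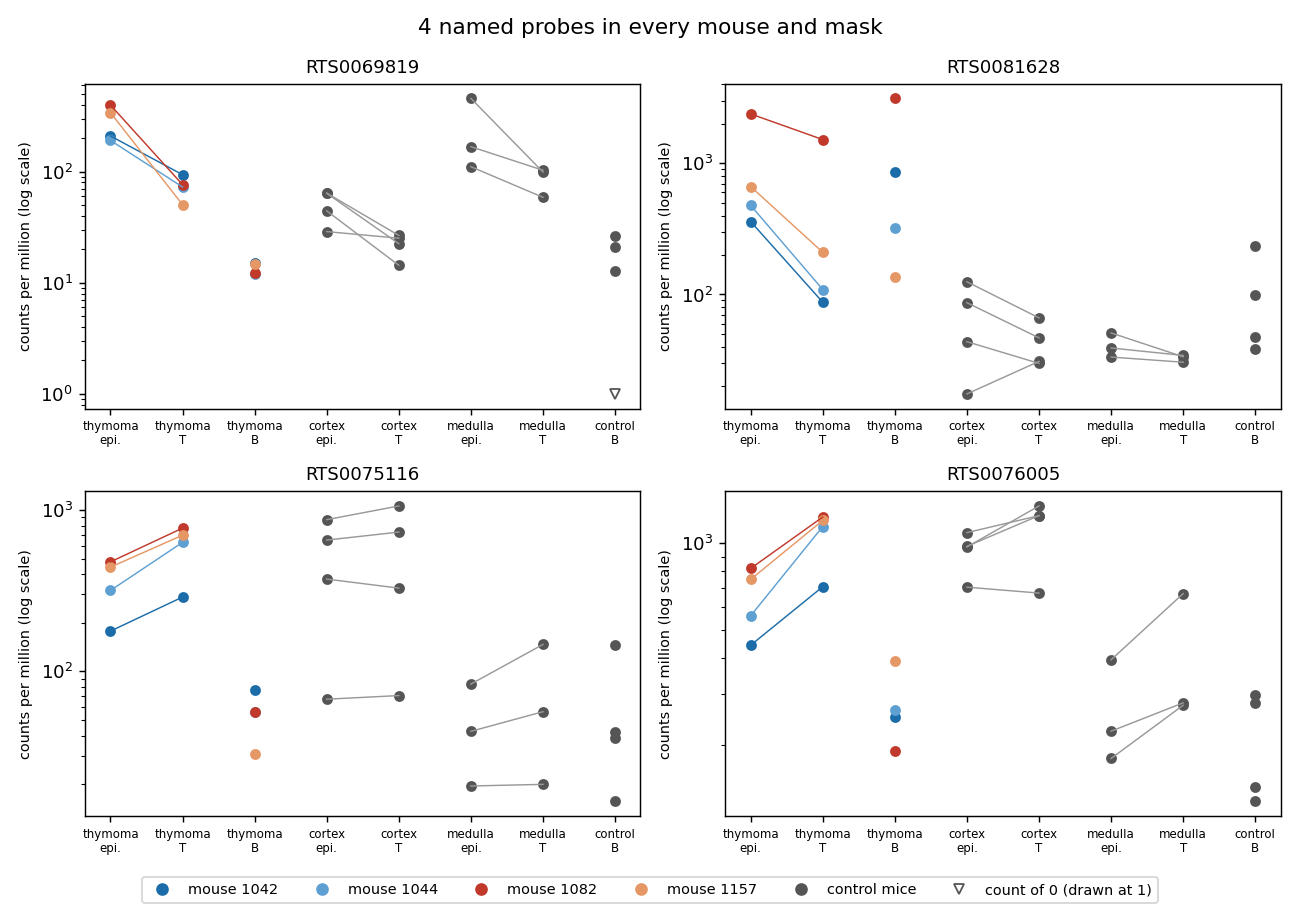
Level of the 4 named probes in CPM (log y axis) in the summed library of each mouse, by mask and tissue (x axis), with lines joining both masks of a mouse. Coloured points are the 4 thymoma mice and grey points the controls, and an open triangle marks a library with a count of 0. RTS0069819 and RTS0081628 fall and RTS0075116 and RTS0076005 rise from epithelium to T cells in each thymoma mouse, and RTS0081628 in mouse 1082 stands above the other mice.

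Most probes that were higher in epithelium than in T cells of normal thymus were so in thymoma too. Of 596 probes higher in epithelium than in T cells of control cortex, 544 were called higher in thymoma epithelium and none lower, with a median log2 fold change of 0.59. Of 523 such probes from control medulla, 413 were higher and 2 lower, with a median of 0.48. Among all 20175 probes 14.2% were higher, and the median was −0.03. The single thymoma mice gave medians of mean paired differences of 0.48 to 0.64 for the cortical list and 0.39 to 0.56 for the medullary list. The medians over all probes lay between −0.04 and −0.01 in the same mice.

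The probes on both epithelial lists had the largest median. These 194 probes had a median log2 fold change of 0.78 in thymoma, with 189 called higher and none lower. The 402 probes of the cortical list alone had a median of 0.49, with 355 higher and none lower. The 329 of the medullary list alone had one of 0.34, with 224 higher and 2 lower. Both lists were called with control libraries of some of the same mice, and probes with large contrasts are the likelier ones to be on both.

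In counts, the cortical epithelial list made up 10.0 ± 1.19% of the thymoma epithelium libraries and 5.94 ± 0.99% of the T cell libraries (SD, n = 4). In control cortex the shares were 5.58 ± 0.76% and 3.54 ± 0.28% (n = 4), a contrast that chose the list. The T cell mask of thymoma thus held as large a share of these probes as the epithelium mask of normal cortex. Thymoma B cell segments held 7.45 ± 1.01%, between the other thymoma masks, and control B cell segments 6.47 ± 1.71% (n = 4). The list was called against T cells alone, and its mean share was no lower in control B cell segments than in control cortical epithelium. How much epithelium lay under the T cell mask was not tested.

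Probes higher in T cells than in epithelium of normal thymus were lower in thymoma epithelium, with smaller differences. Of 228 probes higher in T cells than in epithelium of control medulla, 155 were called lower in thymoma epithelium and 8 higher, with a median of −0.29. Among all probes 11% were lower and 14.2% higher, with a median of −0.03. Their share of counts was 3.59 ± 0.51% under the epithelium mask and 4.6 ± 0.59% under the T cell mask (SD, n = 4). Thymoma B cell segments held 4.67 ± 0.25%, within the spread of the T cell mask. Control cortex gave only 21 T cell probes, of which 7 were lower and none higher, with a median of −0.13. Called without the shallow control mouse 1143, this list held 60 probes, of which 25 were lower (median −0.18), and the medullary epithelial list 868, of which 646 were higher (median 0.40). For the medullary T cell list the medians of paired differences were −0.39 and −0.38 in the mice of the first slide and −0.24 and −0.22 in those of the second.

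Zone lists also moved with the masks. These lists hold probes that differed between medulla and cortex of control mice under 1 mask, and their counts are read against 14.2% higher and 11% lower among all probes, whose median was −0.03. Of 960 medullary probes from epithelium, 540 were higher in thymoma epithelium and 24 lower, with a median of 0.25. Of 1147 cortical probes, 102 were higher and 579 lower, with a median of −0.18. The lists called under the T cell mask gave 465 higher and 56 lower of 952 medullary probes (median 0.20), and 61 and 542 of 1039 cortical probes (median −0.18). Medullary probes were thus on the epithelium side in thymoma and cortical probes on the T cell side, whichever mask had defined them. In counts, the cortical epithelium list made up 18.6% of thymoma epithelium libraries and 19.7% of T cell libraries. In control epithelium, which chose the list, it made up 15.4% in cortex and 8.19% in medulla. The medullary epithelium list made up 5.38% and 4.08% in thymoma, and 3.97% and 6.89% in control cortical and medullary epithelium. The side of a list within thymoma therefore does not assign a zone to its epithelium.

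The B cell list lay on the epithelium side as well. Of 439 probes higher in B cells than in medullary T cells of control mice, 219 (49.9%) were higher under the epithelium mask of thymoma and 21 (4.78%) lower, with a median of 0.19. Of 95 probes lower in control B cells, 10 were higher (10.5%) and 56 lower (58.9%), with a median of −0.24. The shares among all probes were 14.2% higher and 11% lower. The B cell list made up 8.93 ± 1.14% of thymoma epithelium libraries, 7.02 ± 0.67% of T cell libraries and 12.0 ± 0.76% of B cell libraries (SD, n = 4). The part of B cells under the PanCK mask in the contrast was not tested. The lists overlap, and their defining genes are unnamed.

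**Figure D3:**
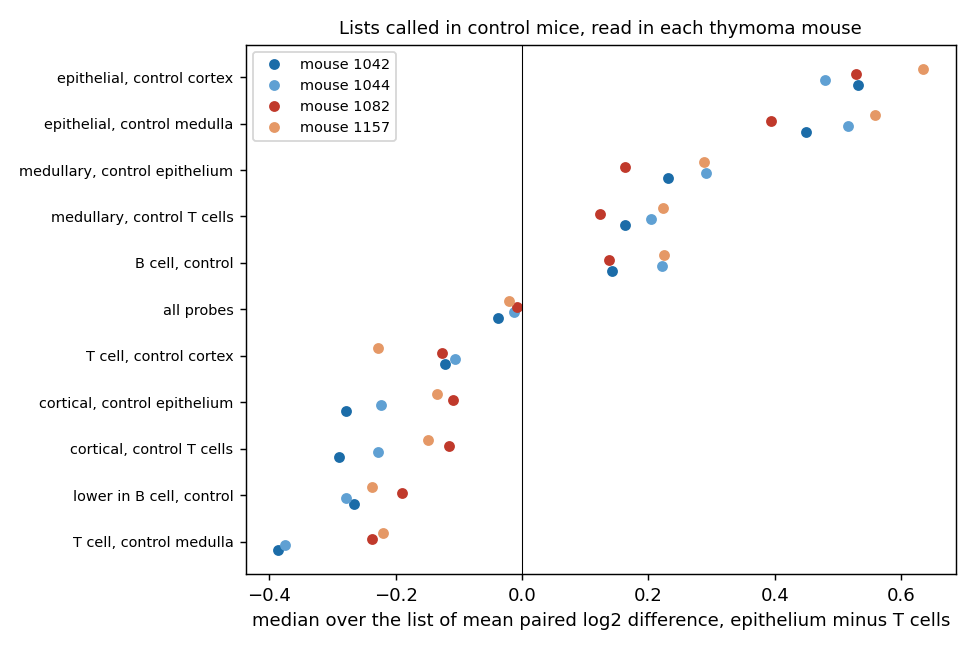
Median over each list of probes of the mean paired log2 difference, epithelium minus T cells (x axis), in each of the 4 thymoma mice (points), for 10 lists called in control mice and for all probes (y axis). The 5 lists at the top are right of the median of all probes in each mouse and the 5 at the bottom left of it, with the epithelial lists highest at 0.39 to 0.64.

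The distance between epithelial and T cell probes was positive in all 12 regional pairs and varied among them. The gap between the medians of the medullary epithelial list and the medullary T cell list ran from 0.62 to 1.05 log2 units over the 12 pairs, with a median of 0.75. Means per mouse were 0.83, 0.86, 0.64 and 0.79 in mice 1042, 1044, 1082 and 1157. The ratio of T cells to epithelial cells under the masks ran more widely, from 1.08 to 5.08 per pair. The correlation of that ratio with the gap was −0.28 over the 12 pairs, which share 4 mice, and is given as a description.

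Read the other way, few of the thymoma calls had been made in control thymus. Of the 2865 probes higher in thymoma epithelium, 544 were called higher in control cortex (19.0%) and 413 in control medulla (14.4%), against 2.95% and 2.59% of all probes. The sign was shared more widely, with 85.3% positive in cortex and 79.7% in medulla, against 44.2% and 43.7% of all probes. Of the 102 probes above 1 log2 unit, 83 were called in cortex and 55 in medulla. Of the 2227 lower probes, 7 were called lower in cortex (0.314%) and 155 in medulla (6.96%), against 0.104% and 1.13% of all probes. Only 18.0% of them were positive in cortex and 14.7% in medulla, against the 44.2% and 43.7% of all probes. Control epithelium libraries held 103978 to 8526921 counts in cortex and 358192 to 6461706 in medulla, and a missing call there does not show a missing contrast.

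The difference between the contrasts was therefore tested itself. Against control cortex, 334 probes (1.66%) had a different epithelium to T cell contrast in thymoma, 245 of them higher (1.21%) and 89 lower (0.441%). The 245 had a median log2 fold change of 0.69 in thymoma and 0.15 in cortex, and 243 of them were called higher within thymoma. The 89 had medians of −0.47 and −0.02, and 81 were called lower within thymoma. In both directions the medians were farther from 0 in thymoma than in cortex. Single probes went the other way, and the largest difference of all, −3.64, was from 4.08 in cortex to 0.39 in thymoma. In DESeq2 and over the probes above the median CPM, no probe was called lower by more than 1 log2 unit. The contrasts in both tissues chose the probes and are a description.

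Against control medulla, 246 probes (1.22%) differed, 165 higher (0.818%) and 81 lower (0.401%). The 165 had a median of 0.74 in thymoma and 0.02 in medulla. The median of the 81 was −0.08 in thymoma and 0.54 in medulla, and 57 of them were called higher in medullary epithelium. Within thymoma 18 of the 81 were called lower and 8 higher, so that a median near 0 covers members on both sides. These values too chose the probes and are a description.

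Both counts depended on single control mice. Against cortex the count was 57 without mouse 1057, 80 without mouse 1172 and 187 without mouse 1059. Against medulla it was 26 without mouse 1057 and 122 without mouse 1172, where the balance turned to 50 higher and 72 lower. DESeq2 called 133 higher and 133 lower against cortex, and 116 and 24 against medulla.

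Lists from the other control zone were then read in each difference, against 1.21% higher and 0.441% lower among all probes for cortex and 0.818% and 0.401% for medulla. Against cortex, 87 of the 523 epithelial probes of control medulla had a larger contrast in thymoma and 1 a smaller one, with a median difference of 0.21, where the median of the whole set was −0.01. Of the 228 T cell probes of control medulla, 31 were lower and none higher, with a median of −0.22. Against medulla, 95 of the 596 epithelial probes of control cortex were higher and 3 lower, with a median of 0.30 where the whole set had −0.02. Of the 439 B cell probes 7 were higher and 2 lower against cortex, with a median of 0.03. These shares of 1.59% and 0.456% are near those of all probes.

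The counts within these lists fell with single mice more than the medians did. The 87 higher probes went to 24 without mouse 1057 and 30 without mouse 1172, while the median stayed between 0.17 and 0.24 over all mice left out. The 31 lower probes went to 13 without mouse 1044, 4 without 1057, 13 without 1059 and 1 without 1172, with medians from −0.25 to −0.19. The 95 went to 11 without mouse 1057 and 36 without 1172, with medians from 0.25 to 0.39. The lists come from other segments of the same control mice, so they share animals and slides with the contrast they describe.

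**Figure D4:**
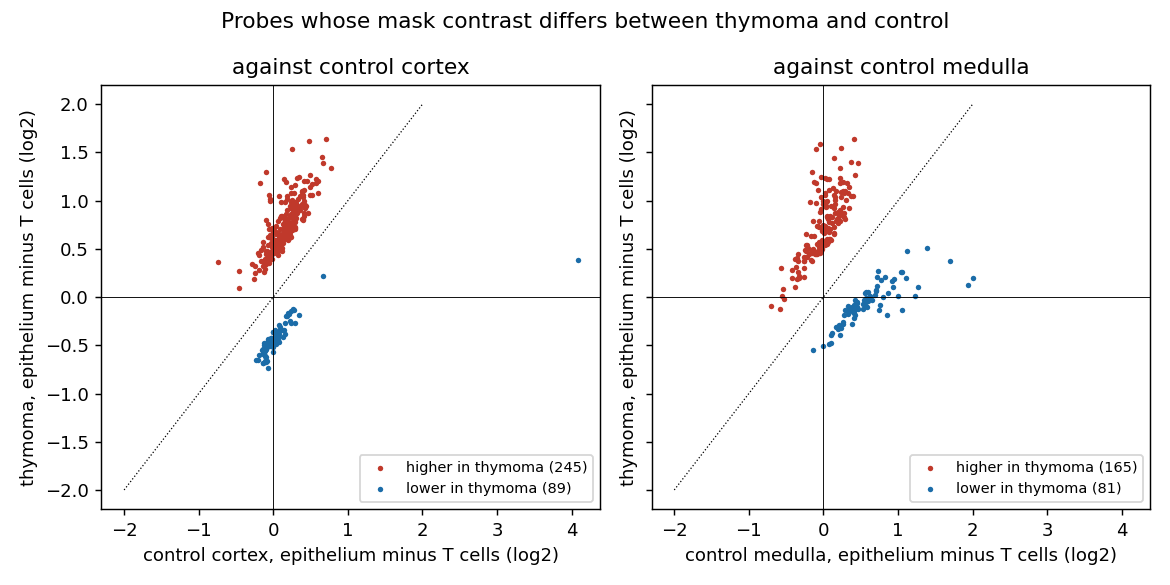
Log2 fold change of epithelium against T cells in thymoma (y axis) against that in control cortex (left, x axis) and control medulla (right, x axis), for the 334 and 246 probes whose contrast differed. Red points had a higher contrast in thymoma (245 and 165) and blue points a lower one (89 and 81), and the dotted line marks equal contrasts. The 81 blue points at the right have a median of −0.08 in thymoma and 0.54 in medulla, and 28 of them lie above 0 in thymoma.

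The masks themselves differed in what they enclosed. The area under the epithelium mask per counted cell was 82.1 ± 16.3 µm2 in thymoma (SD, n = 4), from 60.6 to 100.1, and that under the T cell mask 40.8 ± 8.96. The ratio of both was 1.61, 1.34, 3.11 and 2.47 in mice 1042, 1044, 1082 and 1157, so that epithelium had the larger area in 4 of 4 mice (exact two-sided sign permutation p = 0.125, the smallest that 4 pairs allow). Counts per cell were 2271 ± 904 under the epithelium mask and 1437 ± 439 under the T cell mask. Their ratio was 1.03 and 0.856 on the first slide and 2.68 and 2.22 on the second (exact p = 0.375). The slides thus did not overlap in either ratio, with 2 mice on each. The sum of mouse 1042 includes its unpaired epithelium segment, and its paired regions had count ratios of 1.17, 0.801 and 0.886. By the median over paired regions, counts per cell were higher under the epithelium mask in 2 of 4 mice (exact two-sided sign permutation p = 0.5).

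Against control thymus the area per cell of the epithelium mask was not separated at this number of mice. It was larger than in control cortex by 34.7 µm2, with control mice from 31.3 to 72.3 (exact two-sided permutation p = 0.0571, adjusted over 4 comparisons 0.229). It was larger than in medulla by 17.7 µm2, with control mice from 52.8 to 87.2 (exact p = 0.229, adjusted 0.457). For the T cell mask the differences were 5.26 µm2 against cortex (exact p = 0.4, adjusted 0.533) and 1.09 against medulla (exact p = 0.914, adjusted 0.914). The smallest p that the design allows is 0.0286 for 4 against 4 mice and 0.0571 for 4 against 3. After the adjustment over 4 comparisons no area comparison could fall below 0.05, so these tests could not have called a difference.

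**Figure D5:**
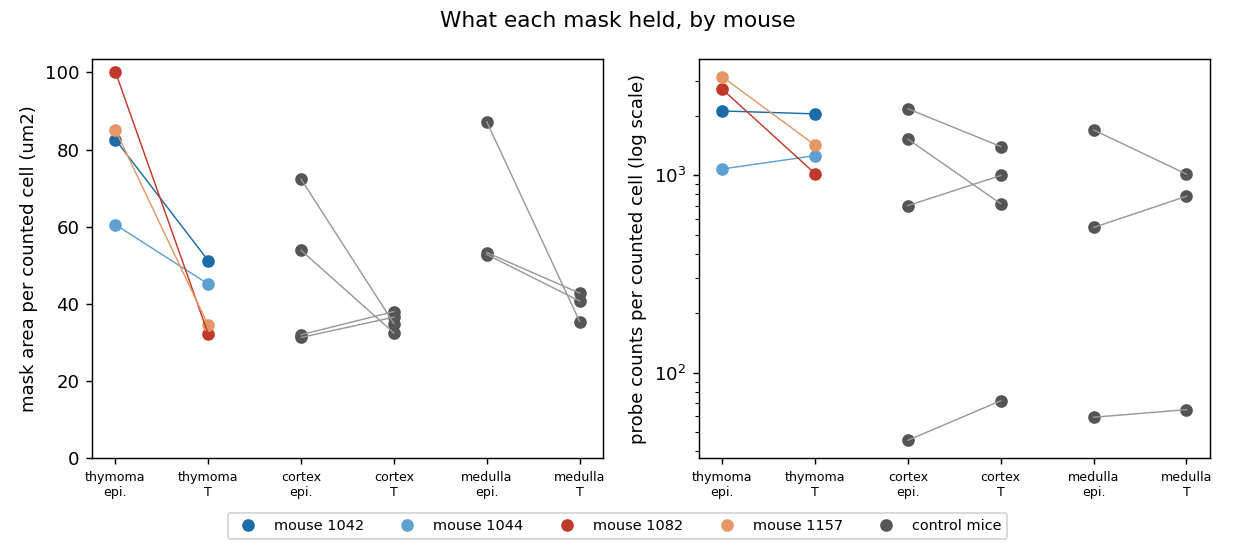
Mask area per counted cell in µm2 (left, y axis) and probe counts per counted cell (right, log y axis) for each mouse, by mask and tissue (x axis), with lines joining both masks of a mouse. In thymoma the area per cell is larger under the epithelium mask in 4 of 4 mice, and the control mouse with the lowest counts per cell is 1143.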

How the data were processed

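Each segment has a file of probe counts, deposited as whole numbers and written by GeoMx_NGS_Pipeline 2.0.0 (DCC format 0.02), per the file headers. Unlisted probes were set to 0. The counts carry no normalization; background probes could not be told apart, so none was subtracted. In some files the count column has no usable name, and it was read alike and checked to hold whole numbers. No 2 segments were identical. Sequencing saturation was 67.6% to 79.2% in the segments compared. A count floor or interval covers counting error only.

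Counts were summed per mouse and mask, filtered by filterByExpr, scaled by TMM and tested with edgeR 4.0.16 (quasi-likelihood, Benjamini-Hochberg adjusted p below 0.05, SE from the F statistic) in R 4.3.3, with the mouse as block. The difference between tissues was the interaction of mask and tissue in 1 fit. limma 3.58.1 and DESeq2 1.42.0 were alternatives. The thymoma fit and the difference from cortex were run on simulated counts with known changes and the same dispersion for every probe. The difference from medulla was not simulated. Both masks of a mouse share animal and regions, and their libraries deviated together from the group means (r of 0.747 to 0.871 over probes above the median level, against at most 0.206 with another mouse). Deviations from a group mean cancel over its mice, which by itself lowers the r with another mouse. The labels tie each segment to a mouse, so p-values rest on mice as replicates. edgeR shares part of its estimate of spread over all probes, so an SE is not the spread between mice of 1 probe alone. The SD of the 4 mouse means of paired differences was 0.56 for RTS0069819 and 0.77 for RTS0081628, whose SEs were 0.18 and 0.16. limma on mean paired differences per mouse gave them adjusted p = 8.14e-06 and 0.000134.

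Named probes were called, above the median level and of 1 sign in all 12 regional pairs (1714 probes), and of these the 2 largest and 2 smallest log2 fold changes are given. Gene lists set for named genes were not used. Members and lists were chosen with earlier results of these data known.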

Additional observations from a re-analysis of the deposited data

Results flagged for a closer look

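Single mice stood apart from the other 3 of their group in 5 of the 62 groups of 4 mice examined, where chance gives about 1 in 20. RTS0081628 was at 2385 CPM in thymoma epithelium of mouse 1082, against 360 to 666 in the others, and at 1519 CPM in its T cells, against 87.3 to 210. RTS0076005 was at 707 CPM in thymoma T cells of mouse 1042, against 1143 to 1233, and at 672 CPM in cortical T cells of control mouse 1172, against 1247 to 1347. The epithelial list from control medulla made up 5.42% of the thymoma epithelium counts of mouse 1082, against 7.01% to 7.21%.

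The mask contrast differed between thymoma and control tissue in 5 results, each by the interaction test of edgeR. These were 334 probes against cortex, 246 probes against medulla, RTS0081628 against cortex (1.08 log2 units) and against medulla (1.23), and RTS0075116 against cortex (−0.67). Both named probes were chosen for their thymoma contrast, which favours such a difference.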

How the results depend on the processing

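The fit without the replicate block, which gives up the pairing of masks within a mouse, called 13 probes in thymoma (2416 at an unadjusted p below 0.05), 0 for the difference from cortex (247) and 0 for that from medulla (232). The 5092 calls in thymoma went to 2451 in DESeq2 and to 2375 with libraries thinned to the smallest total. They were 3566 to 4437 without 1 mouse, and 3530 and 4207 with the mice of 1 slide only, a split chosen after seeing the data. The 334 calls against cortex ranged from 57 to 410 without 1 mouse. The 246 calls against medulla were 140 in DESeq2, 151 over the probes above the median CPM, and 26 to 292 without 1 mouse. Of the named probes, RTS0069819 alone kept its call without the block, and the 4 kept theirs under the other 15 settings. Among these 15, the fit without a filter on low counts equals the main fit, since the filter removed no probe. The fits of 1 slide are also among them, and the named probes were chosen for their call. With lists called without mouse 1143 the list medians were 0.50 (epithelial, cortex), 0.40 (epithelial, medulla) and −0.19 (lower in B cells). The last was −0.28 with upper-quartile factors and −0.25 to −0.19 without 1 mouse, and that of the B cell list 0.16 to 0.24. The area difference of the T cell mask against medulla turned to −2.40, −0.38 and −1.02 µm2 without mouse 1042, 1044 or 1057 and was at most 3.93. The cause of these shifts was not tested. Control libraries of mouse 1143 were the shallowest, with 103978 counts in cortical epithelium.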
